A study of Homo sapiens with 3 samples.

Results

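MYC peaks whose summits flanked protein-coding genes made up 609 of the 9818 peaks that the authors deposited for parental U2OS cells (6.20%, Wilson 95% interval 5.74 to 6.70). A peak was counted here when its summit lay over 1000 and up to 5000 bp from the nearest end of a RefSeq protein-coding gene, with no gene end of another class within 1000 bp. Classes were set by the summit alone, so the called interval of a flanking peak can reach a gene end, and gene-end peaks are those with a summit within 1000 bp of a protein-coding end. U2OS is a human osteosarcoma line. Immunoprecipitation with an antibody to MYC gave 2 libraries, described as biological replicates, and 1 input library stood beside them, all from this line with no other genotype or treatment named. Both these cells and mouse NIH3T3 fibroblasts were fixed in 1% formaldehyde for 10 min, and the mouse cells were mixed in at 10% as a reference genome, a design called ChIP-Rx. All values come from 1 peak list without per-library values, so no replicate error exists for any of them and depth is unknown. Peaks of 1 list are not replicates, and each interval below covers counting error only. Expression was not measured in this series, so the identity of the line was not checked against marker genes.

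MYC is a basic helix-loop-helix leucine zipper transcription factor that binds DNA as a dimer with MAX. Its preferred element is the E-box CACGTG, and it is known for occupying active, CpG-rich promoters of genes for growth and biosynthesis. A gene can have several promoters, and the annotated span of a gene begins at the outermost of them. A promoter in use can therefore lie well inside that span.

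The promoter table of RefSeq (GRCh38.p14) gives 300 bp windows from 250 bases before to 50 after a transcript start, and it often lists several starts for a gene. It held 34961 windows of 27195 genes, and covered 477 of the 609 flanking peaks by their nearest gene. In 88 flanking peaks the summit itself lay inside the window of the nearest listed start. The windows of the 5 strongest of these 88 by −log10 q are printed 5′ to 3′ along transcription, because they show what kind of sequence lay under the strongest peaks. Capitals mark the E-box CACGTG.
MRPL24, chr1:156741039-156741338, minus strand: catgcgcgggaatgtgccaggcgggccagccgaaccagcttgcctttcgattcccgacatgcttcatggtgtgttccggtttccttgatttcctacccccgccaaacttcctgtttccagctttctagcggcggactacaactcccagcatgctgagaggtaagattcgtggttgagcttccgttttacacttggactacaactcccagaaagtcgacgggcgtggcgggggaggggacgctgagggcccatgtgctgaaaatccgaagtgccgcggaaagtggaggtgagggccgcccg
CLUAP1, chr16:3500754-3501053, plus strand: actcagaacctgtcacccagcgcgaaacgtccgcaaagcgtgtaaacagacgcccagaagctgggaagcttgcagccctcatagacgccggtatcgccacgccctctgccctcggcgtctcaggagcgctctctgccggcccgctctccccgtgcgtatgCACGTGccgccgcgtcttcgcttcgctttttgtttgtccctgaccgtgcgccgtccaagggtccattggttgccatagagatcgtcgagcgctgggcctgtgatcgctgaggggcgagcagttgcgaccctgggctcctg
GEMIN7, chr19:45078945-45079244, plus strand: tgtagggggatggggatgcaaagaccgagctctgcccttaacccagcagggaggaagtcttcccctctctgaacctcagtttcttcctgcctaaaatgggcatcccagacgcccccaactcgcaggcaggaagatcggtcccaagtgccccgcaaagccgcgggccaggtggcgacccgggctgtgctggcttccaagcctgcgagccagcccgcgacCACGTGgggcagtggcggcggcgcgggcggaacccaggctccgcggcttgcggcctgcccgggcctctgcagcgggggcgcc
RPL6, chr12:112409236-112409535, minus strand: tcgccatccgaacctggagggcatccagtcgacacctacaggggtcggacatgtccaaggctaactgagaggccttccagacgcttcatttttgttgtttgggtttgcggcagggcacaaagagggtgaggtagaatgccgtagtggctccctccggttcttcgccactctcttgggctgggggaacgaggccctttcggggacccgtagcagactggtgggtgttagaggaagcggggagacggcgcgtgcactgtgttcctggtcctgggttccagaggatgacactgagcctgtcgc
MPG, chr16:77975-78274, plus strand: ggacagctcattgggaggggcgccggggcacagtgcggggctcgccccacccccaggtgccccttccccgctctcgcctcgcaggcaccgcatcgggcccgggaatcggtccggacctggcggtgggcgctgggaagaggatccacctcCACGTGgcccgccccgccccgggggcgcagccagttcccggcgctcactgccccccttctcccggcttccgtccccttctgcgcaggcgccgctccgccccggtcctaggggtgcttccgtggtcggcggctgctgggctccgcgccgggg
The E-box was present in 3 of these 5 windows. In CLUAP1, a gene of intraflagellar transport, it began at position -90 from the start and its centre lay 5.5 bp from the summit. In MPG, a DNA repair glycosylase gene, it began at -101 and its centre lay 9.5 bp from the summit. In GEMIN7, which encodes a component of the survival of motor neuron complex, it began at -32 and its centre lay 58.5 bp from the summit. MRPL24, a mitochondrial ribosomal protein gene, and RPL6, a cytosolic one, had no CACGTG in these 300 bases. Their peaks had folds of 32.9 and 19.5. The RPL6 window did hold CGCGTG, a variant counted further below, and the MRPL24 window held neither it nor its reverse complement.

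The flanking peaks fell off with distance from the gene and then levelled. Of the 609, 200 lay within the first step of 500 bp, up to 1500 bp from the nearest end, and 112 in the second, up to 2000 bp, while each later step held between 42 and 58. The median distance was 1976 bp (quartiles 1347 and 3306). Because neighbouring genes take up space, the counts were divided by the sequence that could hold such a summit, 220 Mb in all. The density was 6.46 peaks per Mb (exact Poisson 95% interval 5.60 to 7.43) in the first step, 3.74 (3.08 to 4.50) in the second and between 1.67 and 2.16 in each of the 6 beyond 2000 bp. The intervals of the first and second steps did not overlap each other or those of the later steps, and the later 6 all overlapped. The zone within 1000 bp of protein-coding ends held 6385 peaks in 72.5 Mb, or 88.0 per Mb.

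**Figure D1:**
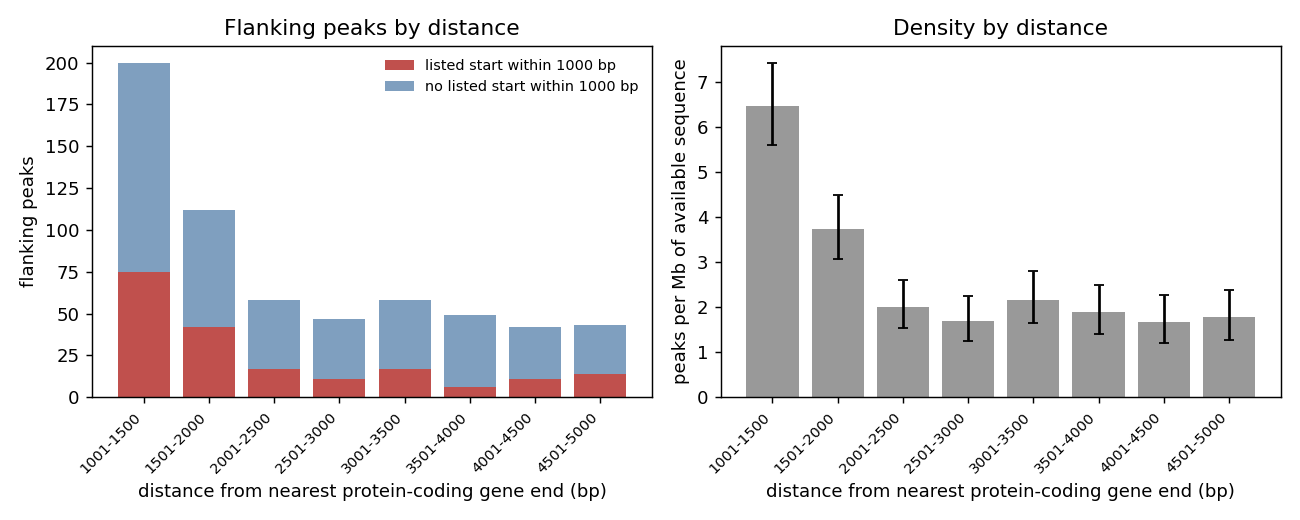
Flanking peaks by distance of the summit from the nearest protein-coding gene end in steps of 500 bp. Left, number of peaks, split by whether a listed transcript start lay within 1000 bp of the summit. Right, the same peaks per Mb of available sequence with exact Poisson 95% intervals. The density was 6.46 per Mb in the first step and between 1.67 and 2.16 beyond 2000 bp.

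Near the bounds of the rule the values were mixed on both sides. The closest members were FBXW4 (1002 bp, fold 32.3), ERG (1002 bp, 8.49), HMGB2 (1003 bp, 5.68), DLGAP3 (1004 bp, 7.09) and HDGF (1005 bp, 32.9). The gene-end peaks just short of them, at 995 to 999 bp from SLCO5A1, ANKHD1, PBX3, DLL3 and GPBP1L1, had folds between 5.17 and 11.2. The farthest members, near AHNAK2, PAX8, UBE2E1, LSM5 and CDA at 4926 to 4979 bp, had folds between 6.64 and 8.97. Peaks just beyond, nearest to LZTFL1, SHISA5, ROBO3, DDRGK1 and ACP7 at 5002 to 5033 bp, had folds between 5.13 and 9.46.

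Among flanking peaks whose gene had a known strand, the most common place was inside the gene after its 5′ end. Of the 609 summits 375 (61.6%, 57.7 to 65.4) lay within the span of the nearest gene, 40 lay outside it but inside another protein-coding gene, and 167 (27.4%) lay outside genes of every class. The strand of the nearest gene was known for 477. Among these, 345 (72.3%, 68.1 to 76.2) were nearest to a 5′ end, of which 254 lay inside the gene (53.2% of the 477, 48.8 to 57.7) and 91 upstream. Among the flanking peaks beyond 2000 bp, and among those away from listed transcript starts, 49.5% lay inside the nearest gene. The other 132 were nearest to a 3′ end, with 53 inside the gene and 79 downstream. Per Mb of available sequence there were 5.53 peaks (4.87 to 6.25) inside after the 5′ end, 2.21 (1.78 to 2.71) upstream, 1.88 (1.49 to 2.35) downstream of the 3′ end and 1.16 (0.872 to 1.52) inside before it.

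Many of the summits inside genes had a listed transcript start within 1000 bp, 169 of the 375 inside the nearest gene (45.1%, 40.1 to 50.1). A listed start lay within 1000 bp of 193 of the 609 summits (31.7%, 28.1 to 35.5), beside 64.0% of all 9818 peaks, where starts at gene ends count. The gene-end peaks reached 83.6% and the distal peaks, those over 5000 bp from every gene end, 15.5%. Distal peaks inside protein-coding genes reached 27.7% (25.0 to 30.6). Only 1.44% of the bases available to flanking peaks lie that close to a listed start. Within 250 bp of a start there were 125 flanking summits (20.5%, 17.5 to 23.9), on 0.329% of the available bases. These shares are lower bounds, because the table lacks 132 of the members' nearest genes. Among the 477 members whose nearest gene is in the table, 188 (39.4%, 35.1 to 43.9) lay within 1000 bp of a start.

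The density of flanking peaks differed more by nearness to a listed start than by the end that they flanked. Within 1000 bp of a listed start it was 61.2 peaks per Mb (52.9 to 70.5), and within 250 bp it was 173 (144 to 206). Away from listed starts it was 1.92 per Mb (1.74 to 2.12). Of those 416 peaks 127 were nearest to a gene without a known strand, because the table holds no window for it, chromosome 8 included. They gave 2.83 per Mb (2.36 to 3.37), so peaks counted as away from starts can lie at starts that are not listed. Inside genes after the 5′ end, 165 of 254 summits were near a start, at 67.4 per Mb (57.5 to 78.5), and the other 89 gave 2.05 per Mb (1.64 to 2.52). Upstream of the 5′ end the 80 peaks away from starts gave 1.95 per Mb (1.55 to 2.43), and downstream of the 3′ end 71 such peaks gave 1.70 (1.33 to 2.14). Away from listed starts, the intervals of these 3 places overlapped. Inside genes before the 3′ end the 49 remaining peaks gave 1.08 per Mb (0.801 to 1.43), below the intervals of the 2 places at the 5′ end.

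**Figure D2:**
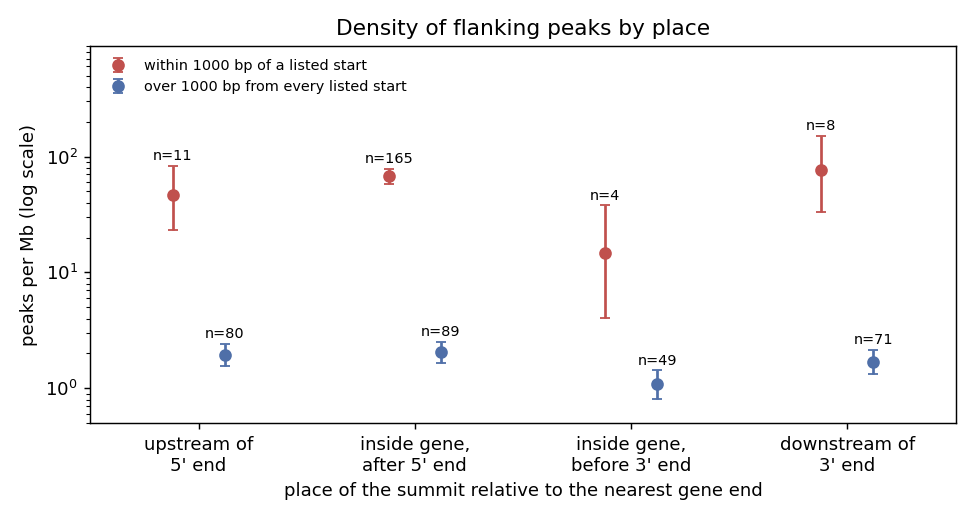
Density of flanking peaks per Mb of available sequence on a log scale, by place of the summit relative to the nearest gene end, for the 477 peaks with a known strand. Points carry exact Poisson 95% intervals and n is the number of peaks. Peaks over 1000 bp from every listed start lay between 1.08 and 2.05 per Mb in the 4 places, and those near a start between 14.7 and 76.2.

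Summits near a start lay mostly close to it. Of the 193 summits, 125 (64.8%, 57.8 to 71.2) lay within 250 bp of the nearest start. The median offset was 16 bp downstream along transcription (quartiles -128 and 237), with 93 upstream and 100 downstream. The limit of 1000 bp holds on both sides, so a median near the start and an even split carry little information on their own. The start belonged to the nearest gene in 166 cases, and 142 of these starts lay over 1000 bp from both annotated ends of that gene. In the other 27 cases it belonged to another gene. The peak nearest to the 3′ end of HDGF, a growth factor gene, lay 15 bp from a start of MRPL24, and the peak 4258 bp from C16orf90 lay 93 bp from a start of CLUAP1. The peak 2745 bp from ZNF296, a zinc finger gene, lay 29 bp from a start of GEMIN7. The nearest end is thus not always the end of the gene whose start is closest.

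**Figure D3:**
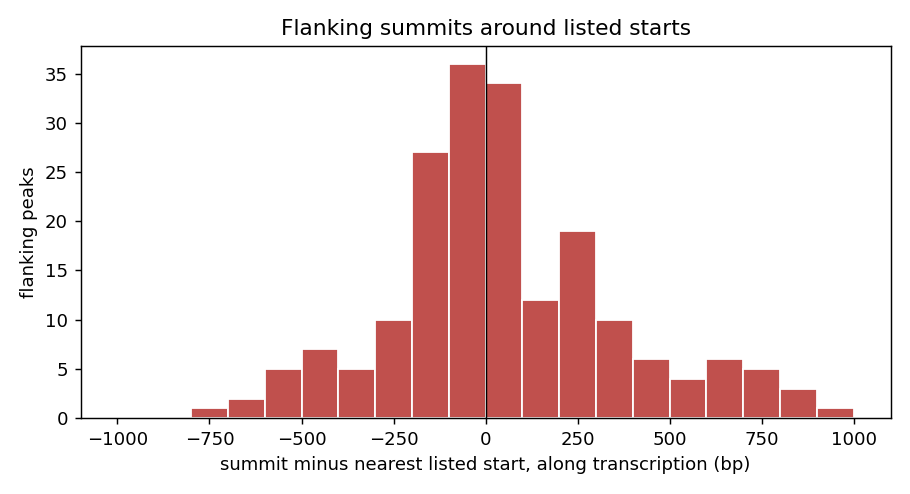
Position of 193 flanking summits relative to the nearest listed transcript start within 1000 bp, in bins of 100 bp, with negative values upstream along transcription. The quartiles lay at -128 and 237 bp, within the limit of 1000 bp on either side.

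Second summits at the outer end were about as few beside peaks at a listed start of the same gene as beside flanking peaks in general. There were 162 members inside a gene after its 5′ end and within 1000 bp of a listed start of that gene. Of these, 18 (11.1%, 7.14 to 16.9) also had a summit within 1000 bp of that 5′ end. Not every such start lies deep in the gene. Of the 166 starts of the nearest gene counted above, 24 lay within 1000 bp of an annotated end. Among all 609 flanking peaks, 69 (11.3%, 9.05 to 14.1) had another summit within 1000 bp of the same gene end. In 75 genes the start at the peak, here called inner, lay over 1000 bp from the outermost listed start (median 1942 bp apart). Of these genes, 13 had a summit within 1000 bp of the outermost start. A peak has 1 summit, so an interval that spans both starts cannot show a second one. The flanking interval itself came within 1000 bp of the 5′ end in 71 of the 162 and covered it in 9. For the 91 whose interval stayed clear, 14 (15.4%, 9.39 to 24.2) had a gene-end summit. Among the 75 pairs the flanking interval came within 1000 bp of the outermost start in 28, and 10 of the other 47 (21.3%) had a summit there. No interval of the list came within 1000 bp of the outermost start in 37 of the 75. The inner window had the higher ratio of observed to expected CpG in 55 of the 75 genes and the higher GC content in 51. CACGTG stood in the inner window alone in 7 genes, in the outermost alone in 9 and in both in 0. The windows of PACRGL, and of HNRNPUL1, an hnRNP-like RNA-binding protein gene, are the 2 strongest such pairs by −log10 q with the summit inside the inner window, shown because only 1 of them has the E-box at the inner start. Capitals again mark CACGTG.
PACRGL inner start, chr4:20700208-20700507, plus strand: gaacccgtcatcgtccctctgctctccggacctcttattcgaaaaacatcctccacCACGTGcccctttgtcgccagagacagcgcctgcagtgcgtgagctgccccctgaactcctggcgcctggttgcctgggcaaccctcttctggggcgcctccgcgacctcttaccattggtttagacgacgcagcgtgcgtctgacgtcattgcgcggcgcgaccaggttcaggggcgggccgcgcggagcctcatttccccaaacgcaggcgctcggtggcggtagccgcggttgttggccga
PACRGL outermost start, chr4:20696032-20696331, plus strand: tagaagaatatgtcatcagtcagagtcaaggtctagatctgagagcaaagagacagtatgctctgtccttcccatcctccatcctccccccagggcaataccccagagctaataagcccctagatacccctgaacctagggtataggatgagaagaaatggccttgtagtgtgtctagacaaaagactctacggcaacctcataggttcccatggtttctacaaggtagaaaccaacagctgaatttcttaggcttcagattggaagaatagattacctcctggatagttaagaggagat
HNRNPUL1 inner start, chr19:41264122-41264421, plus strand: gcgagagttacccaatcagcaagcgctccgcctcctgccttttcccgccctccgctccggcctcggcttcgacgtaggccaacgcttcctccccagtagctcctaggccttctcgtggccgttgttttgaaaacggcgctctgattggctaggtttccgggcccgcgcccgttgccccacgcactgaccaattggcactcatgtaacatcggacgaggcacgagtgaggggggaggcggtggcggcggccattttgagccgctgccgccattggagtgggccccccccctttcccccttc
HNRNPUL1 outermost start, chr19:41262307-41262606, plus strand: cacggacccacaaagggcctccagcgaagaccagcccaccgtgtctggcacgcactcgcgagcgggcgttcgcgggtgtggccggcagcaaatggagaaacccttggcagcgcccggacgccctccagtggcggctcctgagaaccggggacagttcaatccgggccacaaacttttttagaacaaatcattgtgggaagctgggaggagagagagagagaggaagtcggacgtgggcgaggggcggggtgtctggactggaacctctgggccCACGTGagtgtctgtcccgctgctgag
At PACRGL the inner window had 65.0% GC and a CpG ratio of 1.02, the outermost 45.3% and 0.0649. The E-box of the inner window began at -194, with its centre 18.5 bp from the summit, and the peak had a fold of 32.1. At HNRNPUL1 the GC contents were close, at 65.0% inside and 63.7% at the outermost start. Here the E-box stood at the outermost start, and the summit, with a fold of 22.5, lay in the inner window without one. The called interval, from 41262118 to 41264465, covered both windows.

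Over all 88 windows that held a flanking summit, CACGTG was found in 16 (18.2%, 11.5 to 27.5), beside 7.27% of all 34961 windows. The E-box is its own reverse complement, so this covers both strands. The share was 17.1% (15.8 to 18.5) in the 3038 windows with a gene-end summit and 18.2% in the 121 with a distal summit, and 6.16% in windows without a summit. The variants CACGCG and its reverse complement CGCGTG stood in 27.3% of the flanking windows (19.1 to 37.4) and 11.4% of all windows. The looser form CANNTG, which includes CACGTG, stood in 63.6% and 68.7%. The flanking windows also had more GC than the table as a whole, with a median of 69.7% against 58.7%, and a higher CpG ratio, 0.868 against 0.580. The part of base composition in the E-box shares was not tested. Among windows with CACGTG, its centre lay a median of 22 bp from the summit in the 16 flanking windows and 22 bp in 519 gene-end windows. It lay within 50 bp in 10 of the 16 (62.5%, 38.6 to 81.5), beside 71.7% of the gene-end windows and 77.3% of the distal windows with CACGTG. Summit and E-box both lie in the same 300 bp window, which limits these distances in advance. The peaks over these 16 windows had a median fold of 11.2 (5.87 to 23.1) and those over the 72 without it 8.96 (7.76 to 9.69), with overlapping intervals.

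Flanking peaks were close in height to the list as a whole. Their median fold over input was 7.73 (exact binomial 95% interval of the median 7.38 to 8.09, quartiles 5.65 and 10.9), beside 7.78 for all peaks, 8.16 (8.04 to 8.30) for gene-end peaks and 6.87 (6.66 to 7.04) for distal peaks. The fold here is the enrichment of immunoprecipitated over input signal at the summit, and it is the authors' own value for each peak. A fold of 10 or more was listed for 183 flanking peaks (30.0%, 26.5 to 33.8), beside 32.6% of all peaks, and a fold of 20 or more for 40 (6.57%), beside 6.97%. The 193 members at a listed start had a median fold of 8.85 (7.76 to 9.34) and the 416 others 7.52 (7.12 to 7.83). The former interval overlapped that of gene-end peaks and the latter did not. By −log10 q, 47.9% of flanking peaks (44.0 to 51.9) stood in the stronger 50% of the list, against 55.0% of gene-end and 35.8% of distal peaks. The median width was 740 bp (691 to 777), between 814 bp at gene ends and 559 bp in distal peaks. Members at a listed start were wider than the rest, at 880 bp (784 to 956) against 676 bp (635 to 719).

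**Figure D4:**
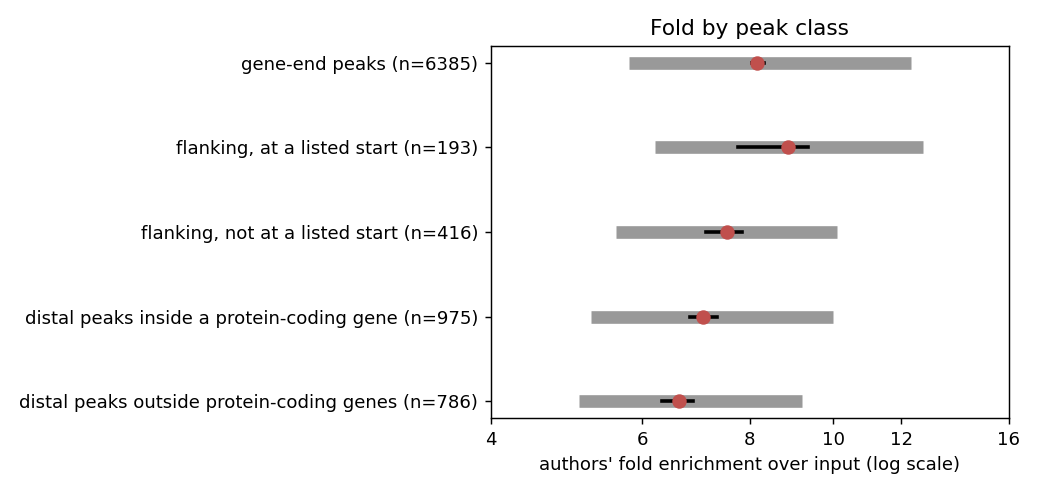
Fold enrichment over input by class of peak on a log scale. Red points are medians, black lines their exact binomial 95% intervals and grey bars the range between quartiles. Flanking peaks at a listed start had a median of 8.85, those without one 7.52, and gene-end peaks 8.16.

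The highest −log10 q of the flanking peaks, 760, belonged to a peak 1895 bp upstream of RRM2, the small subunit of ribonucleotide reductase (chromosome 2, 10120025 to 10123368, hg38, fold 28.9). This peak was 3344 bp wide, the widest of the 609, and its called interval covered the end of the gene although its summit did not lie near it. NME2, a nucleoside diphosphate kinase gene, had the highest fold of the class, 55.9 (chromosome 17, 51166020 to 51167340), 243 bp after an inner start. NPM1, which encodes the nucleolar chaperone nucleophosmin, had a fold of 41.6 (chromosome 5, 171387292 to 171389068), with its summit 1411 bp inside the gene and 679 bp after the nearest listed start. HSP90AB1, a cytosolic chaperone gene (31.7, chromosome 6, 44245938 to 44248056), and PRMT1, the main arginine methyltransferase (25.4, chromosome 19, 49677052 to 49678105), had summits 353 and 303 bp after an inner start.

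Other strong peaks had their summits over 1000 bp from every listed start. CDC42EP1, an effector of the CDC42 GTPase, had a fold of 34.2 with its summit 1456 bp inside the gene (chromosome 22, 37560091 to 37562628), in an interval that covered the gene end. TFAP4, which encodes an E-box binding factor, had one of 27.6 (chromosome 16, 4271047 to 4272631). TFAP4 and HMOX1 are not in the promoter table, so the distance to their own starts was not analysed here. NUMBL, a regulator of Notch signalling, had the second highest fold, 42.2, at a peak 2929 bp beyond its 3′ end (chromosome 19, 40662705 to 40663409). The peak 4252 bp upstream of IGF2BP3, an RNA-binding protein gene, reached 27.6 (chromosome 7, 23473617 to 23475188), and that 4013 bp from HMOX1, the haem oxygenase gene, 21.9 (chromosome 22, 35376637 to 35377447). The peak 2345 bp beyond the 3′ end of KXD1, a gene of lysosome positioning, reached 24.4, and its summit lay inside another protein-coding gene. FBXW4, an F-box gene whose summit lay 876 bp after a listed start, completed the 15 strongest beside the peaks near HDGF, C16orf90 and ZNF296 given above. Of the 10 highest by fold, those not yet named were CATSPERD, a sperm cation channel gene (37.4), and ENO3, the muscle enolase gene (32.2, near a listed start). Whether a site is exonic or intronic was not analysed here, as transcript structures were not used.

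A called interval often reached closer to a gene than its summit. In 197 of the 609 (32.3%, 28.8 to 36.2) some base of the peak lay within 1000 bp of a gene end, and in 23 the interval covered a protein-coding end. The members whose intervals stayed clear had a median fold of 7.36 and a median width of 648 bp.

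Most flanking summits had no second summit at the same gene end. Another summit lay within 1000 bp of the same gene end in 69 of 609 cases (11.3%, 9.05 to 14.1). The median distance to the nearest other summit of the list was 29393 bp, and 95 members (15.6%) had one within 5000 bp. These distances were not summarised for the other classes of peaks, so they do not set flanking peaks apart. In the 69 pairs the flanking peak had the higher fold in 40 (58.0%, 46.2 to 68.9), with a median log2 ratio of flanking to gene-end fold of 0.10 (quartiles -0.63 and 0.61), so neither of the 2 was regularly the stronger. The 5 pairs with the strongest gene-end peaks were those of PABPC1, a poly(A)-binding protein gene, WDR74, a ribosome assembly gene, SLC1A5, a glutamine transporter gene, MEF2D, a MADS box factor gene, and PTMA, the prothymosin gene. At PABPC1 the flanking fold was 13.5 and the gene-end fold 37.1, and at WDR74 they were 18.1 and 55.1. SLC1A5 had 14.7 and 27.0, and MEF2D 9.54 and 19.8. The PTMA peaks were close, with 20.1 in the flank and a log2 ratio of -0.06. At HMOX1 the order was the opposite, with 21.9 in the flank and 4.43 at the end.

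**Figure D5:**
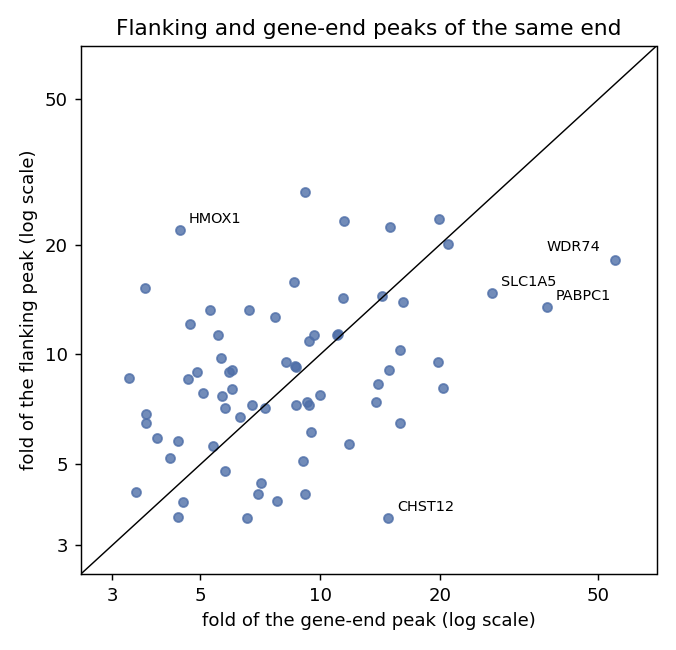
Fold of the flanking peak against that of the strongest gene-end peak of the same gene end for 69 pairs, both on log scales, with the line of equal folds. Points lie on both sides of the line, 40 of them above it.

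The 609 peaks had 594 protein-coding genes as their nearest gene, 2.97% of all 19970 (2.75 to 3.22). Of these 594 genes, 460 had no summit within 1000 bp of either end. Among all 19970 protein-coding genes the count with such a summit, rather than without, was 7509 (37.6%). An end without a summit can still be reached by a peak. The called interval came within 1000 bp of a protein-coding end in 188 of the 609 flanking peaks and covered one in 23. Only C9orf50 was the nearest gene of 3 flanking peaks (folds 15.7, 7.06 and 4.71), and for each of them the closest listed start was that of NTMT1, at 15, 1757 and 1 bp. A further 13 genes had 2, among them SLC29A1, a nucleoside transporter gene, RPL3, a ribosomal protein gene, and BHLHE40. Chromosome 19 held 66 of the members, 11.6% of its 569 peaks, beside 6.20% of the whole list. The available sequence was not split by chromosome, so this share is not a density and the part of gene spacing in it was not tested.

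Of the 24 gene lists, immediate early genes and circadian clock genes had the highest shares flanked, beside 2.97% of all genes. Of 29 immediate early and AP-1 genes 7 were flanked (24.1%, 12.2 to 42.1), and 5 of the 7 had no gene-end peak. FOSL2, an AP-1 subunit, had a fold of 16.8 at 2098 bp upstream (chromosome 2, 28390077 to 28391168), and FOSL1, its relative, 8.62 at 1075 bp. IER2, an early response gene, had 13.0 with the summit 1829 bp inside the gene, and EGR1, a zinc finger factor of growth factor signalling, 4.44 at 1201 bp upstream. The RNA decay factors ZFP36L1 and ZFP36L2 had 12.1 and 5.25, the former 22 bp from an inner start, and IER5L had 4.91. These lists were chosen with earlier results of the same peaks known, and their counts are a description without a test.

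Of 25 clock genes 5 were flanked (Wilson interval 8.86 to 39.1%), with 10 of 25 having a gene-end peak. CSNK1E, a kinase that phosphorylates PER proteins, had the highest fold, 16.1 (chromosome 22, 38316602 to 38317275), 381 bp after an inner start. BHLHE40, a repressor that itself binds E-boxes, had peaks on both sides, with folds of 5.98 at 1156 bp upstream and 10.6 at 1850 bp beyond its 3′ end. BHLHE41, its paralogue, had 6.19 at 1114 bp upstream, in an interval 1615 bp wide that came within 83 bp of the gene. NR1D1, the REV-ERB alpha receptor gene, had 8.81 with the summit 1346 bp inside the gene. DBP, a clock output factor, had 9.28 in the flank and 8.63 at the end itself. Of these 5 genes 2 were flanked by a peak that kept all its bases over 1000 bp from gene ends, and 1 had a flanking peak beyond 2000 bp. The same limits left 4 and 3 of the 7 early response genes, and 402 and 294 of the 594 genes of the whole list.

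Flanked SOX, forkhead and KLF genes had no gene-end peak, as was the case for 460 of all 594 flanked genes. Of 65 SOX and forkhead genes 7 were flanked (10.8%, 5.32 to 20.6), all 7 without a gene-end peak. SOX12 had the highest −log10 q of them, 147, with its summit 1743 bp inside the gene. SOX11 had a fold of 14.8, followed by FOXN2 (10.4), SOX1 (7.38), FOXS1 (5.75), FOXO1 (5.42) and SOX4 (4.93). A flanking peak beyond 2000 bp was found for 2 of the 7, and the FOXN2 interval reached a gene end. Of 27 KLF and SP genes 3 were flanked (11.1%, 3.85 to 28.1), again without gene-end peaks. These were SP3 (fold 21.3), SP7, the osteoblast factor osterix (16.7), and KLF9 (14.8). Of 39 homeobox cluster genes 3 were flanked (7.69%, 2.65 to 20.3), HOXA10 (fold 5.74), HOXA9 (3.70) and HOXA3 (3.62). Numbered ZNF zinc finger genes were flanked in 12 of 509 cases (2.36%, 1.35 to 4.08), close to the 2.97% of all genes. ZNF296 (27.5), ZNF552 (20.9) and ZNF48 (15.2) were strongest. Among nuclear receptors NR1D1 and RXRA (fold 11.5) were flanked, 2 of 33 (6.06%, 1.68 to 19.6). Among 30 MAP kinase feedback genes SPRED2 alone (fold 6.09) was flanked (3.33%, 0.591 to 16.7). The intervals of both lists, and of the homeobox and ZNF lists, included the share of all genes.

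The signalling, matrix and other lists below held 2 or 3 flanked genes each. Their shares ran from 5.00% to 17.6%, above the 2.97% of all protein-coding genes. With so few genes the Wilson intervals were wide, 1.38 to 16.5% for actin and adhesion genes and 6.19 to 41.0% for the ID and HES family. The folds lay on both sides of the median of 7.73 for all flanking peaks. In TGF-beta and BMP signalling 3 of 37 genes were flanked, all of them SMAD genes without a gene-end peak. SMAD6, an inhibitory SMAD, had 10.1, SMAD7, another, 4.81, and SMAD1, a BMP effector, 4.03. Of 17 ID and HES family genes and their partners 3 were flanked, both BHLHE genes and HES1 (3.56), a Notch target. In the extracellular matrix and osteoblast list, which describes the lineage of the line, 3 of 25 were flanked, SP7 (16.7), COL1A1 (3.58) and DLX5 (3.02). Genes activated by p53 gave 2 of 23, BBC3 (9.22) and GADD45A (3.95), and actin and adhesion genes 2 of 40, PARVA (6.86) and ACTN1 (4.76). ATP6V0A1, a proton pump subunit (8.42), and TFEB, the lysosomal regulator (5.24), were 2 of 40 lysosome and autophagy genes.

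Of growth and biosynthesis genes, 24 of 32 for nucleotide synthesis and 45 of 48 translation factor genes carried a gene-end peak. So did 78 of 84 ribosomal protein genes. Of all protein-coding genes 2.97% were flanked. The Wilson intervals for translation factors and nucleotide synthesis lay above that share, and those of the other lists of this paragraph included it. Of 48 translation factor genes 5 were flanked (10.4%, 4.53 to 22.2), and all 5 also had a gene-end peak at 1 end or the other. The folds were 23.2 at EIF2B5, 17.3 at EEF1G, 15.8 at EIF5A, 13.5 at PABPC1 and 3.95 at EIF3I. Only 1 of these 5 genes was flanked by a peak with all its bases over 1000 bp from gene ends. In nucleotide, serine and one-carbon synthesis 3 of 32 were flanked (9.38%, 3.24 to 24.2), GMPS, a purine synthesis enzyme gene (fold 9.26), beside RRM2 and NME2. None of the 3 had a gene-end peak by its summit. The called interval of the RRM2 peak nevertheless covered the gene end, and that of NME2 came to 484 bp from one. PAICS was not the nearest gene of a flanking peak. NPM1 was the 1 flanked gene of 50 in ribosome biogenesis, and RPL6 (19.5) and RPL3 (7.23 and 5.86) were 2 of 84 cytosolic ribosomal protein genes. DNA replication gave 2 of 40 (5.00%, 1.38 to 16.5), the polymerase delta subunits POLD2 (18.0) and POLD3 (7.38). Cyclin and cell cycle genes gave 2 of 50 (4.00%, 1.10 to 13.5), CCND3 (10.3) and CCND2 (7.22). Splicing regulators gave 2 of 40 (5.00%, 1.38 to 16.5), HNRNPUL1 (22.5) and HNRNPL (14.5). No member of the MYC and MAX network (14 genes), of the replication-dependent histones (73) or of the snRNP and SF3 list (31) was flanked. Their Wilson intervals reach 21.5%, 5.00% and 11.0%.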

How the data were processed

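MYC ChIP-Rx libraries of parental U2OS cells (2 immunoprecipitated, 1 input) are represented by 1 peak list that the authors deposited in narrowPeak layout, on hg38 per the name of the list. Tools listed in the submitters' processing notes are MACS2, Bowtie2, cutadapt, Picard and SAMtools, and builds are hg38, hg19 and mm10, without roles or versions. How replicates were pooled and mouse reads used is not stated. In the deposited list the fold is a linear ratio over control at the summit, and significance is given by the authors as −log10 q. The deposited score equals 10 times −log10 q without decimals in nearly all rows and was not used. Depth is unknown.

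Distances run from the summit, column 2 plus column 10, to RefSeq GRCh38.p14 gene ends on chromosomes 1 to 22 and X (19970 protein-coding of 59094 genes). Strand and transcript starts came from the RefSeq promoter table. It matched 15811 protein-coding genes by symbol. Sequences centred on summits were planned, but without a genome the table's windows were used. Available sequence is every base meeting the distance rule. No test was run, since 1 list has no replicates. Shares carry Wilson intervals, medians exact binomial intervals and densities exact Poisson intervals, all at 95%. The 24 gene lists and the members were chosen with earlier results of these data known. Named genes are the 15 strongest by −log10 q, the 10 highest by fold, the 3 strongest of each list (all where 5 or fewer), peaks next to the bounds, the 5 strongest pairs, genes with 3 or more peaks, and NPM1, CCND2 and PAICS. Other members of the early response, clock and forkhead lists, and MPG, RPL6, PACRGL, HNRNPUL1, SLC29A1 and RPL3, were named after their values were seen. Settings varied were peak strength, any base in place of the summit, the distance bounds, gene biotype, the companion end and window length. Restriction to peaks away from listed starts was chosen after seeing the data. Position assignment was tested on simulated data. Python 3.11.15, pandas 2.3.3, NumPy 2.4.6, SciPy 1.17.1 and statsmodels 0.14.6 were used.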

Additional observations from a re-analysis of the deposited data

How the results depend on the processing

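A −log10 q of at least 10 left 602 peaks and moved no result beyond its interval. In the stronger 50% of peaks there were 292 flanking peaks of 290 genes, and their share of the list was 5.95%. Their median fold was 11.0 and their median width 886 bp, both raised by the choice itself. There 76.6% were nearest to a 5′ end, 14.7% had a companion at the same end and 36.3% lay at a listed start. Leaving out peaks with any base within 1000 bp of a gene end gave a share of the list of 4.20%, a median fold of 7.36 (90.2% of that of gene-end peaks) and a width of 648 bp. It left 54.9% inside the nearest gene, 64.9% nearest to a 5′ end and 26.9% at a listed start. An outer bound of 3000 bp gave 4.25% of the list, a width of 782 bp, 68.1% inside the gene and 77.2% nearest to a 5′ end. Restriction to summits beyond 2000 bp gave 297 peaks of 294 genes (3.03%), a width of 678 bp, 49.5% inside the gene, 61.9% nearest to a 5′ end and 25.6% at a listed start. Without members at a listed start the share was 4.24%, the width 676 bp, 49.5% lay inside the gene and 58.5% were nearest to a 5′ end, so the shares inside genes and at 5′ ends depend on those members. Ends of genes of any biotype gave 1007 peaks. With −log10 q in place of fold the median was 84.0% of that of gene-end peaks, against 94.7%. A companion at either end was found for 22.3%, and a start within 250 bp for 20.5%. The E-box share of windows, 18.2%, stayed between 14.3% and 21.4%. No paired analysis was possible because 1 peak list holds no per-library values, and for the same reason no library could be left out. Depth being unknown, a weak peak below the authors' threshold cannot be told apart from none.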
